A study of Homo sapiens with 6 samples.

Results

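Small nucleolar RNAs (snoRNAs) guide ribose methylation and pseudouridylation of ribosomal RNA, and in human cells most are cut from the introns of longer host transcripts. The host genes described here were taken by symbol: every row named SNHG with a number, the noncoding hosts GAS5, ZFAS1, DANCR and EPB41L4A-AS1, and 8 protein-coding hosts (EEF2, EEF1B2, EIF4A1, EIF4A2, TPT1, RACK1, NAP1L4 and CWF19L1). This gave 34 of the 31413 genes in the count table, 26 noncoding and 8 protein-coding. MEG3, also on the list, had no row and was not analysed here. SNHG22 had at most 7 counts in a library and fell below the low-count filter, which left 33 genes tested.

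The series compared C42 cells, a human prostate cancer line usually written C4-2, carrying a control shRNA (shCTR) with the same cells carrying an shRNA against NSD2 (shNSD2), a methyltransferase of histone H3 lysine 36. All cells grew in RPMI medium with serum, and each group gave 3 libraries made with an mRNA kit (shCTR 1, 2 and 4, and shNSD2 1, 2 and 3). Neither the number of hairpins behind each label nor separate cultures are stated, so every p-value rests on library-to-library spread that could be technical. In bulk RNA, fewer expressing cells and less RNA per cell cannot be told apart. Total counts were 19412896 to 20665494 per library. A floor of 3 counts was 0.145 to 0.156 CPM (counts scaled by TMM library size), which covers counting error only. NSD2 itself fell from 219, 223 and 200.1 CPM in shCTR to 85.3, 86.4 and 89.7 CPM in shNSD2 (log2 fold change -1.30, SE 0.0870, edgeR adjusted p = 8.03e-05). The exact two-sided permutation test gave p = 0.1, the smallest that 3 against 3 allows. The prostate luminal marker KLK3 was at 5590.1 to 7038 CPM over the libraries. The leukocyte markers CD14 and CD68 stayed at or below 0.244 and 0.714 CPM (PTPRC and CD3E had no row). The 4 of 5 fibroblast and endothelial markers with a row summed to 25.4 to 27.9 CPM in shCTR and 36.1 to 40.03 CPM in shNSD2, mostly COL1A1, with PECAM1 at or below 0.0489 CPM, and their part in the results was not tested.

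Noncoding hosts are spliced RNAs whose exons are often short-lived, because translation of their small reading frames exposes them to nonsense-mediated decay, while the intron-borne snoRNA is kept. Many hosts, coding and noncoding, belong to the TOP class: their RNA starts with a C followed by a run of pyrimidines (a 5′ terminal oligopyrimidine tract), which ties their translation and stability to growth signals through mTOR and LARP1. Several protein-coding hosts make the translation machinery itself, such as elongation factor EEF2, helicase EIF4A2 and the ribosomal scaffold RACK1. Of the 34 genes, 33 had a snoRNA gene inside their span in GENCODE 29 or RefSeq. SNHG27 was the exception in these 2 annotations. RefSeq lists 11 snoRNA genes within GAS5, 9 within SNHG1 and 83 within SNHG14, the long transcript of the imprinted chromosome 15 region, whereas 11 of the 34 genes hold a single one.

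The start regions of 8 noncoding hosts are shown so that the sequence feature by which the family is known can be seen where it is present, and compared with SNHG1, where it was not found, in hosts that fell (SNHG12, SNHG4, SNHG1), rose (SNHG8, SNHG19, SNHG16) or were not called (SNHG5, ZFAS1). Each is 80 bases of RefSeq sequence (GRCh38.p14) on the gene's strand, with 50 bases before the annotated start and 30 from it on. Capitals mark TATAA and a C followed by at least 4 further C or T.
SNHG12: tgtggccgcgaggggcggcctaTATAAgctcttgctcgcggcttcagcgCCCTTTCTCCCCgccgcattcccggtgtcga
SNHG4: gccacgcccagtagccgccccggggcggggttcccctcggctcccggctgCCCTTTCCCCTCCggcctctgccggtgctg
SNHG1: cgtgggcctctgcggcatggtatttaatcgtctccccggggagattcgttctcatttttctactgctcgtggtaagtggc
SNHG8: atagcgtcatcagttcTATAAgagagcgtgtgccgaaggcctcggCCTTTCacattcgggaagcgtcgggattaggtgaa
SNHG19: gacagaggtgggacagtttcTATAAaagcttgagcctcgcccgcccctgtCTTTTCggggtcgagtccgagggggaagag
SNHG16: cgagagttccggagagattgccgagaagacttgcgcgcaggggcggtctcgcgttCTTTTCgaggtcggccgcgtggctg
SNHG5: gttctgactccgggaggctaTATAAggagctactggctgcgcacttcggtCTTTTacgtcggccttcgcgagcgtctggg
ZFAS1: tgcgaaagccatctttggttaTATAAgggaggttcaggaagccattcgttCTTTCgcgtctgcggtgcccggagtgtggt

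These windows lie at chr1:28581844-28581923 (SNHG12, minus strand), chr5:139274051-139274130 (SNHG4, plus), chr11:62855856-62855935 (SNHG1, minus), chr4:118278712-118278791 (SNHG8, plus), chr16:2155329-2155408 (SNHG19, minus), chr17:76557714-76557793 (SNHG16, plus), chr6:85678704-85678783 (SNHG5, minus) and chr20:49278592-49278671 (ZFAS1, plus). A RefSeq promoter was found for 30 of the 34 genes, and not for SNHG6, SNHG9, SNHG15 and SNHG25. A pyrimidine tract of this kind, read on the gene's strand with its C within 5 bases of the annotated start, was found for 15 of the 30, or 50%, against 29.2% of the 10716 tested genes with a promoter and 21.1% of all promoters in the table. TATAA, searched on the gene's strand with all its letters between 40 and 20 bases upstream, was found for 10 of the 30, against 3.84% of tested genes and 3.77% of all promoters. Both stood together in 9 of the 30, against 0.952% of tested genes. Among called hosts with a promoter, the tract was in 6 of 7 that rose and in 3 of 7 that fell, and among those not called in 6 of 15. These matches describe the letters around the annotated start, which can differ from the start used in C42 cells. For SNHG1 neither motif was found by these rules.

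Of the 33 hosts tested, 9 rose and 7 fell with the NSD2 shRNA at an adjusted p under 0.05 in edgeR's quasi-likelihood test, so 48.5% were called against 30.7% of all 17160 genes tested. The median log2 fold change of the hosts was 0.02, against 0.01 over all genes. Among the 25 noncoding hosts 6 rose and 6 fell (median -0.05), and among the 8 protein-coding hosts 3 rose and 1 fell (median 0.23). Calls thus lay on both sides, as the plot of fold changes shows gene by gene. The split was 4 higher and 7 lower with each library's trend on GC content and exon length removed, and 10 higher and 5 lower with upper-quartile scaling. Library CPM of the groups did not overlap for 20 of the 33 hosts, against 46.8% of all genes. Without shCTR 4, 21 hosts were called against 46.5% of all genes, and without any other single library 5 to 7 hosts were called, while 13.8% to 18.4% of all genes were. The calls of SNHG27, SNHG12, SNHG1, SNHG26 and EIF4A1 held in all 6 fits without a library and in each of the other 9 alternative fits.

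**Figure D1:**
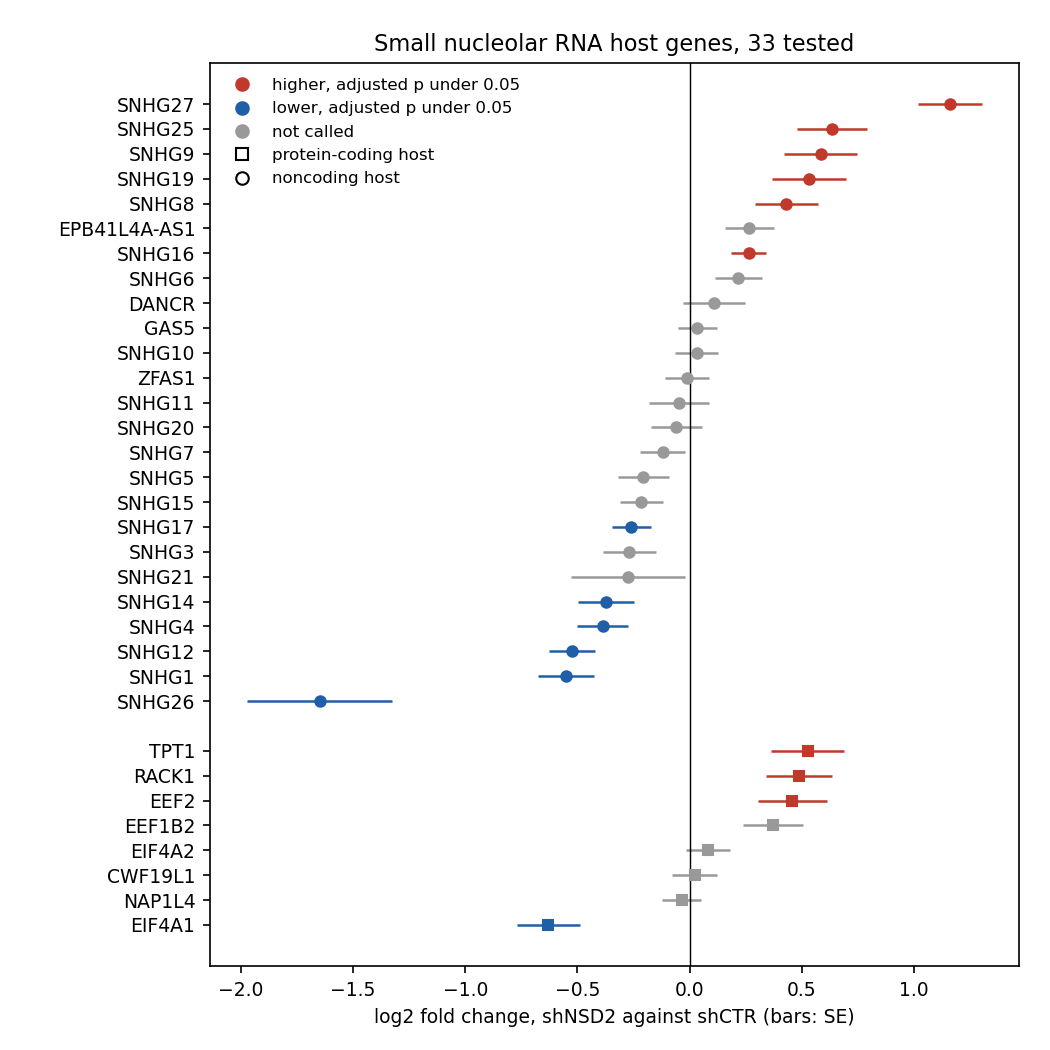
Log2 fold change of the 33 tested host genes, shNSD2 against shCTR (3 libraries each), with bars for the SE of the edgeR fit; circles are noncoding and squares protein-coding hosts, red higher, blue lower, grey not called. SNHG27 (1.16) and SNHG26 (-1.65) lie at the ends, and GAS5 (0.03) and ZFAS1 (-0.01) beside 0.

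The control library shCTR 4 lay toward the knockdown libraries for most hosts, as measured from the mean of shCTR 1 and 2. It lay on the knockdown side of that mean for 28 of 33 hosts, and for 16 of the 16 that were called. The same share over all genes is not given here, so this position is not shown to be particular to the hosts. Without shCTR 4, 46.5% of all genes were called, against 30.7% with it. In some hosts that were not called, such as SNHG3, DANCR and NAP1L4, shCTR 4 went past the knockdown mean. In SNHG12, SNHG4 and SNHG17 shCTR 2 was slightly nearer to the knockdown libraries than shCTR 4. For the called hosts it stood at 17.2% to 84.5% of the shift from shCTR 1 and 2 to the knockdown mean on the log2 scale, with a median of 57.2%. For NSD2 this value was 10.6%. Its part in the results was not tested.

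**Figure D2:**
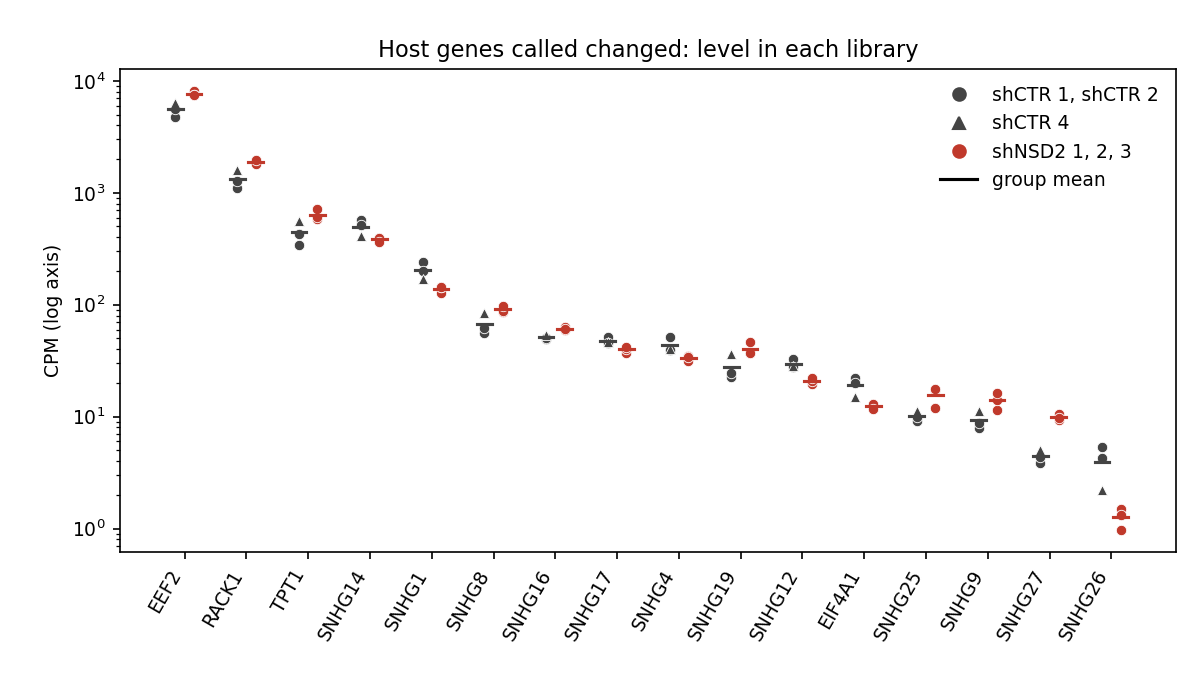
Level of the 16 called host genes in each library, in CPM on a log axis, with a bar for each group mean; grey is shCTR (the triangle is shCTR 4) and red is shNSD2. EEF2 is the most abundant at 4768 to 8122 CPM, SNHG26 the least at 0.969 to 5.33 CPM, and the triangle lies on the side of the red points throughout.

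Among noncoding hosts averaging 5 CPM or more, SNHG1 and SNHG12 had the clearest falls, by log2 fold change and by adjusted p. SNHG1 (ENSG00000255717), host of a run of box C/D snoRNAs from SNORD22 to SNORD31, lies on chromosome 11 from 62851988 to 62855914. It was at 239.8, 199.7 and 169 CPM in shCTR 1, 2 and 4 and at 128, 143 and 145 CPM in shNSD2 1, 2 and 3. All knockdown libraries were below all controls, and the log2 fold change was -0.55 (SE 0.125, edgeR adjusted p = 0.00979). SNHG12 (ENSG00000197989), host of SNORD99 and of SNORA16A, SNORA44 and SNORA61, lies on chromosome 1 from 28578538 to 28583132. Its levels were 32.96, 28.0 and 28.4 CPM in shCTR and 19.4, 20.6 and 22.1 CPM in shNSD2, again without overlap. The log2 fold change was -0.52 (SE 0.101, adjusted p = 0.00506), and shCTR 4 was at 17.2% of the shift, nearest to its own group among the called hosts.

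SNHG26 (ENSG00000228649), which holds SNORD93 on chromosome 7 from 22854178 to 22861579, was outside the rule for named genes because its mean is under 5 CPM, and was chosen after its values were seen. It was at 5.33, 4.29 and 2.19 CPM in shCTR and 0.969, 1.49 and 1.31 CPM in shNSD2. The libraries held 19 to 109 counts of it, and the groups did not overlap. Its log2 fold change of -1.65 (SE 0.324, adjusted p = 0.00553) was the lowest among the tested hosts. Without shCTR 4 the log2 fold change was -1.93.

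SNHG4 and SNHG17 also fell. SNHG4 (ENSG00000281398), host of SNORA74A and SNORA74D, lies on chromosome 5 from 139274102 to 139284899 and was at 51.5, 39.2 and 39.8 CPM in shCTR and 31.2, 34.5 and 34.1 CPM in shNSD2 (log2 fold change -0.39, adjusted p = 0.0278). SNHG17 (ENSG00000196756), host of the SNORA71 group, lies on chromosome 20 from 38420588 to 38435353 and was at 51.2, 45.5 and 46.2 CPM in shCTR and 37.2, 39.9 and 42.3 CPM in shNSD2 (log2 fold change -0.26, adjusted p = 0.0478). The groups did not overlap for either gene. The call of SNHG4 was lost without shCTR 1, shNSD2 1, shNSD2 2 or shNSD2 3, with an adjusted p of up to 0.0994. That of SNHG17 was lost without each library other than shCTR 4 (up to 0.160), and also in 5 of the other 9 alternative fits.

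SNHG14 (ENSG00000224078) was the most abundant noncoding host by counts, but not per base. It runs on chromosome 15 from 24978583 to 25419462 with 43324 bases of merged annotated exon, and its introns hold the SNORD116 and SNORD115 clusters. Its levels were 567, 513 and 410.1 CPM in shCTR and 391.6, 394 and 365 CPM in shNSD2. Every knockdown library was lower than every control, with a log2 fold change of -0.37 (SE 0.125, adjusted p = 0.0437). This fall did not hold when each library's trend on GC content and exon length was removed, where the log2 fold change was 0.03 (adjusted p = 0.793). The call was also lost with upper-quartile scaling and without each library other than shCTR 4, with an adjusted p of up to 0.152. UBE3A (log2 fold change -0.18, adjusted p = 0.123) is antisense to 198 bases, or 0.457%, of the exons of SNHG14. Without a stated strand setting, reads in that stretch cannot be told apart.

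Among the hosts that rose, SNHG27 changed most. SNHG27 (ENSG00000251676) lies on chromosome 4 from 131773302 to 131791482, and was at 3.81, 4.39 and 5.06 CPM in shCTR and 10.5, 9.40 and 9.75 CPM in shNSD2. The knockdown libraries were all well above the controls, a log2 fold change of 1.16 (SE 0.141, adjusted p = 8.09e-04), and the value was also 1.16 with the trend on GC content and exon length removed.

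The 4 noncoding hosts with less than 1000 bases of merged exon, SNHG8, SNHG9, SNHG19 and SNHG25, were all higher in shNSD2. SNHG8 (ENSG00000269893), host of SNORA24 on chromosome 4 from 118278709 to 118279823, was at 55.7, 61.8 and 84.8 CPM in shCTR and 85.8, 88.5 and 98.3 CPM in shNSD2 (log2 fold change 0.43, adjusted p = 0.0403). SNHG19 (ENSG00000260260), host of SNORD60 on chromosome 16 from 2154797 to 2155358, was at 22.5, 24.5 and 36.1 CPM in shCTR and 36.9, 37.0 and 46.1 CPM in shNSD2 (0.53, adjusted p = 0.0337). In both genes shCTR 4 was the highest control, at 84.5% and 81.5% of the shift. SNHG9 (ENSG00000255198), host of SNORA78 on chromosome 16 from 1964959 to 1965509, was at 7.97, 8.72 and 11.3 CPM in shCTR and 11.5, 13.97 and 16.4 CPM in shNSD2 (0.58, adjusted p = 0.0230). SNHG25 (ENSG00000266402), host of SNORD104 and SNORA50C on chromosome 17 from 64145970 to 64146476, was at 9.14, 9.93 and 11.2 CPM in shCTR and 11.9, 17.4 and 17.6 CPM in shNSD2 (0.63, adjusted p = 0.0144). The groups did not overlap for any of the 4 genes. SNHG8 and SNHG19 were not called without each library other than shCTR 4, SNHG9 without shCTR 1, shCTR 2, shNSD2 2 or shNSD2 3, and SNHG25 without shCTR 2, shNSD2 2 or shNSD2 3, with adjusted p-values of up to 0.145, 0.141, 0.110 and 0.0704.

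The fold change went with exon length across the noncoding hosts, less so when the 4 short ones were left out. Spearman's rho between log2 fold change and merged exon length was -0.60 over the 25 genes, which share the same 6 libraries and are not independent, against -0.22 over 17111 genes with an annotated length. Over the 21 noncoding hosts of 1000 bases or more rho was -0.34. It was 0.33 over the 8 coding hosts and 0.11 over all tested genes under 1000 bases. Of the 1850 tested genes under 1000 bases, 12.7% rose and 6.16% fell. With the trend on GC content and exon length removed, the calls of all 4 short hosts were lost, with log2 fold changes of 0.25 to 0.39. The edgeR adjusted p was then 0.0504 for SNHG25, 0.0545 for SNHG8, 0.0732 for SNHG19 and 0.174 for SNHG9. In that fit 30.5% of all genes were called, and 2 noncoding hosts were higher and 6 lower, so the even balance of rises and falls depended on this choice. SNHG7 (-0.35, adjusted p = 0.0237) was called lower there, while SNHG14 was not.

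**Figure D3:**
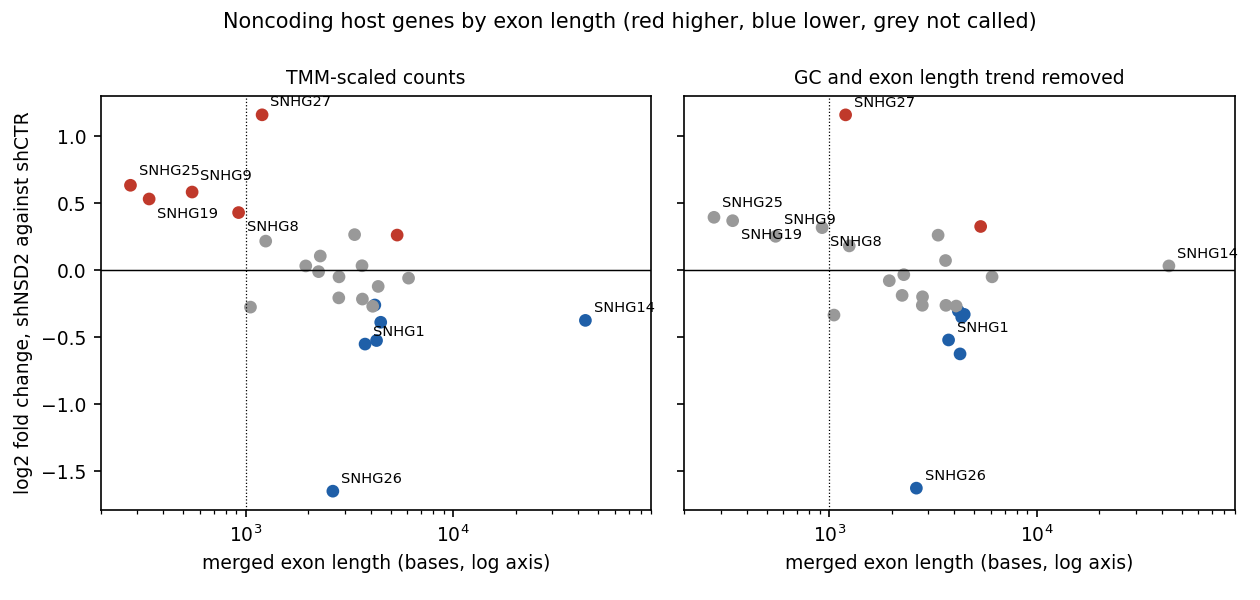
Log2 fold change of the 25 tested noncoding hosts against merged exon length in bases on a log axis, as scaled by TMM (left) and with each library's trend on GC content and exon length removed (right); red higher, blue lower, grey not called, and the dotted line is at 1000 bases. On the left the 4 genes below the line are red, and on the right they are grey at 0.25 to 0.39, while SNHG14 moves from -0.37 to 0.03.

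SNHG16 (ENSG00000163597), host of SNORD1A, SNORD1B and SNORD1C on chromosome 17 from 76557766 to 76565348, was a longer host that rose. Its levels were 48.9, 50.6 and 53.2 CPM in shCTR and 62.9, 59.98 and 60.3 CPM in shNSD2, a tight pair of groups with a log2 fold change of 0.26 (SE 0.0790, adjusted p = 0.0301). The call was lost with the DESeq2 Wald test, without the low-count filter, and without each library other than shCTR 4 (adjusted p of up to 0.104). With the trend on GC content and exon length removed the value was 0.33 (adjusted p = 0.00960).

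GAS5 (ENSG00000234741), a noncoding host studied as a growth-arrest transcript, lies on chromosome 1 from 173863900 to 173868882 and was the most abundant noncoding host after SNHG14 by counts. It was at 288, 271 and 275 CPM in shCTR and 277, 282 and 295 CPM in shNSD2, and the groups overlapped. Its log2 fold change was 0.03 (SE 0.0879, adjusted p = 0.791). DANCR, a long noncoding RNA that hosts SNORA26, differed more between libraries than between groups, at 145 to 211 CPM in shCTR and 169 to 211 CPM in shNSD2. ZFAS1, the antisense host of the SNORD12 group (log2 fold change -0.01, SE 0.0981), SNHG10 (0.03), SNHG11 (-0.05), SNHG20 (-0.06) and SNHG7 (-0.12) were not called either. SNHG3 (-0.27, adjusted p = 0.108), SNHG15 (-0.22), SNHG5 (-0.21), SNHG6 (0.22) and EPB41L4A-AS1 (0.27) had larger differences that did not pass the test, and SNHG21 stood at 0.873 to 1.67 CPM. Without shCTR 4, SNHG3 (-0.40, adjusted p = 7.27e-04), SNHG15 (-0.28, 0.0110), SNHG6 (0.32, 0.00707) and DANCR (0.26, 0.0493) were called as well.

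Among protein-coding hosts, 3 highly expressed genes with a pyrimidine tract within 5 bases of an annotated start rose: EEF2, RACK1 and TPT1. EIF4A2, which also has such a tract and a mean CPM above that of TPT1, was not called (0.08, edgeR adjusted p = 0.539). EEF2 (ENSG00000167658), the elongation factor that moves the ribosome along the message and host of SNORD37, lies on chromosome 19 from 3976056 to 3985469. It was at 4768, 5651 and 6359 CPM in shCTR and 8122, 7509 and 7412 CPM in shNSD2, with every knockdown library above every control (log2 fold change 0.46, SE 0.153, adjusted p = 0.0437). RACK1 (ENSG00000204628), the scaffold protein of the small ribosomal subunit and host of SNORD95 and SNORD96A, lies on chromosome 5 from 181236909 to 181248096. It was at 1109, 1276 and 1610.1 CPM in shCTR and 1834, 1793 and 1977 CPM in shNSD2 (0.49, SE 0.147, adjusted p = 0.0298). TPT1 (ENSG00000133112), which encodes the translationally controlled tumour protein and holds SNORA31 and SNORA31B, lies on chromosome 13 from 45333471 to 45341370. It was at 344, 429.5 and 554 CPM in shCTR and 588, 613 and 711 CPM in shNSD2 (0.52, SE 0.161, adjusted p = 0.0324). In these genes shCTR 4 was the highest control, at 51.9%, 67.2% and 73.0% of the shift. Each of the 3 calls was lost without each library other than shCTR 4, with adjusted p-values of up to 0.138 for EEF2, 0.115 for RACK1 and 0.133 for TPT1. That of EEF2 was also lost with the trend on GC content and exon length removed (0.31, adjusted p = 0.105).

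Of the other coding hosts, EEF1B2 had values like these without passing the test, and EIF4A2, NAP1L4 and CWF19L1 had log2 fold changes of -0.04 to 0.08. EIF4A2 (ENSG00000156976), a helicase of translation initiation on chromosome 3 from 186783205 to 186789900 with 5 snoRNA genes, was at 662, 609 and 625 CPM in shCTR and 682, 662 and 664 CPM in shNSD2, with a log2 fold change of 0.08 (SE 0.0974, adjusted p = 0.539). EEF1B2, a subunit of the exchange factor of elongation, was at 152 to 228 CPM in shCTR and 236 to 248 CPM in shNSD2, without overlap (0.37, adjusted p = 0.0549), with shCTR 4 the highest control at 84.3% of the shift. It was called without shCTR 4 (0.54, adjusted p = 1.89e-04) and with the replicate block (8.80e-04), which compares libraries 1 and 2 alone. It was also called with the DESeq2 Wald test (adjusted p = 0.0291), limma-voom (0.0475), plain library sizes (0.0487) and upper-quartile scaling (0.0410). The histone chaperone gene NAP1L4 (-0.04) and CWF19L1 (0.02) were not called, with adjusted p-values of 0.774 and 0.880.

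EIF4A1 (ENSG00000161960), the closely related initiation helicase gene on chromosome 17 from 7572706 to 7579005, was listed at 22.0, 20.1 and 15.01 CPM in shCTR and 12.3, 13.04 and 11.6 CPM in shNSD2. This was a fall of 0.63 on the log2 scale without overlap (SE 0.140, adjusted p = 0.00916). Its counts of 239 to 449 per library were far below those of EIF4A2. Of its merged exons, 41.1% are shared with the gene AC016876.2 and 29.8% with the readthrough gene SENP3-EIF4A1 on the same strand, rows that held at most 23 and 12 counts. How the authors' counting treated reads shared by these genes is not given in the sources used here, so the level and the fall describe only the reads assigned to this row.

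Levels are compared here as CPM per kilobase of merged annotated exon, which understates genes with many unused exons. In shCTR, EEF2 stood at 1389, RACK1 at 222, EIF4A2 at 103 and EEF1B2 at 97.6 CPM per kilobase. The highest noncoding hosts on this scale were SNHG19 at 81.0, DANCR at 76.7, GAS5 at 76.6 and SNHG8 at 73.1 CPM per kilobase, and SNHG14 stood at 11.5. The noncoding hosts together took 0.176% to 0.198% of all counts in shCTR and 0.164% to 0.180% in shNSD2. The coding hosts together took 0.713% to 0.940% in shCTR and 1.10% to 1.15% in shNSD2, most of it from EEF2 (0.474% to 0.628% and 0.747% to 0.806%). The coding share thus did not overlap between groups, while the noncoding share did.

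Mature snoRNAs carry no poly(A) tail, so in these libraries rows of snoRNA genes hold few reads and do not measure the mature RNA. The snoRNA and scaRNA rows took 0.00812% to 0.0121% of counts in shCTR and 0.00724% to 0.00800% in shNSD2. Of 277 such rows 44 passed the filter, and of these 1 rose and 7 fell, 18.2% in all against 30.7% of all genes, with a median log2 fold change of -0.41. Within the hosts, 43 snoRNA rows were listed and 10 tested, of which 9 had a negative log2 fold change. Of all 44 tested rows, in hosts or not, 9 had a positive one. SNORD99 in SNHG12 went from 1.81, 1.64 and 1.77 CPM to 0.663, 1.18 and 0.921 CPM (log2 fold change -0.91, adjusted p = 0.0226). SNORA71C in SNHG17 went from 2.64, 1.45 and 1.199 CPM to 0.612, 1.13 and 0.824 CPM (-1.04, adjusted p = 0.0458). Both lie in hosts that fell, and these were the 2 called of the 10. Negative values that were not called stood in SNHG17 (SNORA71B, -0.59, and SNORA71A, -0.53) and also in hosts that were not called. The latter were SNORD12B in ZFAS1 (-1.13, adjusted p = 0.0749), SNORA13 in EPB41L4A-AS1 (-0.73, 0.0643), SNORA73B in SNHG3 (-0.58) and SNORA26 in DANCR (-0.55). SNORA60 in SNHG11 alone had a positive value (0.39). SNORD104 in SNHG25, the highest of these rows, was at 5.68 to 8.43 CPM in shCTR and 6.52 to 7.24 CPM in shNSD2 while its host rose (-0.06, adjusted p = 0.803). Without shCTR 4, 8 of 13 tested snoRNA rows in hosts fell, in a fit where 4011 of 17756 genes fell and 46.5% of all genes were called. Without any other library at most 1 of these rows was called.

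Other genes with reads in the same place touched 21 of the 34 hosts. Their exons overlapped 27 annotated genes with rows of their own, leaving out snoRNA and miRNA genes. Of these 27, some of which were not tested, 4 were called, while 30.7% of all tested genes were. In 7 of the 34 hosts an overlap covered at least 20% of the exons. FAM69B, antisense to 25.2% of the exons of SNHG7, rose by 0.76 (adjusted p = 0.00195), and GLRX5, antisense to 20.1% of those of SNHG10, rose by 0.40 (adjusted p = 0.0160). TPT1-AS1, antisense to 0.358% of the exons of TPT1, rose by 0.48 (adjusted p = 0.0136). AC112907.3, antisense to 7.09% of the exons of EIF4A2, fell by 1.30 (adjusted p = 0.004475). EPB41L4A-AS1 shares 49.6% of its exons with EPB41L4A, whose row held 5 to 12 counts. The strand setting is not known, so reads in these shared stretches cannot be assigned with certainty.

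Genes outside the rule that hold an annotated snoRNA on their strand in GENCODE 29 were compared as a group. Of 279 with a row 243 were tested, 39 rose and 53 fell, or 37.9% in all against 30.7% of all genes, with a median log2 fold change of -0.08. NSD2 is among them. Their calls numbered 63 higher and 79 lower without shCTR 4, and 5 to 15 higher and 21 to 35 lower without any other library. No test of the hosts named SNHG against this group was made.

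Of 18 tested genes of the proteins that assemble with or build snoRNA particles 7 rose, so that 38.9% were called against 30.7% of all genes, and 15.5% of all genes rose. The list median was 0.10 against 0.01 over all genes, and the list was not tested as a whole. NHP2, a core protein of box H/ACA particles, was at 54.5 ± 9.41 CPM (SD, n = 3) in shCTR and 75.7 ± 4.77 CPM in shNSD2, and rose by 0.47 (edgeR adjusted p = 0.0157). SNU13, the protein that binds box C/D snoRNAs first, was at 131 ± 22.0 CPM (SD, n = 3) in shCTR and 178 ± 13.3 CPM in shNSD2, and rose by 0.45 (edgeR adjusted p = 0.0207). The others, named after their values were seen, were the box C/D methyltransferase gene FBL (0.44), NOP10 (0.45), RUVBL1 (0.36), RUVBL2 (0.36) and PIH1D1 (0.26). The core protein genes NOP56 (-0.27, adjusted p = 0.0587), DKC1 (-0.11) and NOP58 (-0.07) had negative values and were not called. The count of rises was 9 when shCTR 4 was left out, 2 for shNSD2 1, and 1 for shCTR 1 and for shNSD2 2. Without shCTR 2 or shNSD2 3 the calls of all 7 were lost, with adjusted p-values that reached 0.161 over the 6 fits, and with the trend on GC content and exon length removed the count was 4. In that fit FBL (0.30), NOP10 (0.37), RUVBL2 (0.20) and PIH1D1 (0.13) were not called, and NHP2 stood at 0.27 (adjusted p = 0.0462).

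Of 20 tested factors of nonsense-mediated decay 6 fell, so that 30% were called, a share near the 30.7% of all genes, of which 15.2% fell. The list median was -0.13, and the list was not tested as a whole. NBAS, which acts in decay at the endoplasmic reticulum, was at 65.5 ± 17.0 CPM (SD, n = 3) in shCTR and 38.4 ± 5.53 CPM in shNSD2, and fell by 0.77 (edgeR adjusted p = 0.0102). SMG8, a regulator of the kinase SMG1, was at 50.8 ± 5.57 CPM (SD, n = 3) in shCTR and 37.6 ± 3.03 CPM in shNSD2, and fell by 0.43 (edgeR adjusted p = 0.0121). SMG1 itself (-0.60), SMG5 (-0.39), SMG6 (-0.38) and the release factor gene GSPT1 (-0.34) were the others, named after their values were seen. The central helicase gene UPF1 was not called (-0.12, adjusted p = 0.294). The count of lower genes was 7 when shCTR 4 was left out, 4 for shCTR 1 and for shNSD2 1, and 3 for shCTR 2 and for shNSD2 2. Without shNSD2 3 all 6 calls were lost, and the adjusted p of NBAS over the fits without a library reached 0.0520. With the trend on GC content and exon length removed, SMG1 (-0.24, adjusted p = 0.0587) and GSPT1 (-0.16, adjusted p = 0.179) were not called.

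Of 16 tested regulators of TOP messages 2 rose and 2 fell, so that 25% were called, below the 30.7% of all genes. EIF4EBP1, the translation repressor that mTOR phosphorylates, rose from 146 ± 45.4 to 279 ± 16.1 CPM (log2 fold change 0.93, SD, n = 3, edgeR adjusted p = 0.00508), a call that held without each library in turn. MLST8, a subunit of the mTOR complexes, rose by 0.38 (adjusted p = 0.0144), and RPTOR, the raptor subunit, fell by 0.40 (adjusted p = 0.0213), as did LARP4, which binds poly(A) tails, by 0.41 (adjusted p = 0.00839). The calls of MLST8, RPTOR and LARP4 were lost without 2, 4 and 1 of the libraries, with adjusted p-values of up to 0.0616, 0.0983 and 0.0524. With the trend on GC content and exon length removed, MLST8 (0.18, adjusted p = 0.136) and LARP4 (-0.19, adjusted p = 0.0867) were not called either, and EIF4EBP1 stood at 0.62 (adjusted p = 0.0114). Of 12 other tested messages of the TOP class (13 listed, EEF1G had no row) 2 rose, EIF3F (0.41, adjusted p = 0.0169) and EIF3H (0.36, adjusted p = 0.0499), both subunits of initiation factor 3. This was 16.7% of the list, near the 15.5% of all genes that rose, and the call of EIF3H was lost with DESeq2 size factors and with either other filter. All 12 had a positive log2 fold change, with a median of 0.17, though 10 of them were not called. Over all 17160 genes tested, 8661 had a positive value. Without shCTR 4, 5 rose, and without each other library at most 1 did.

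**Figure D4:**
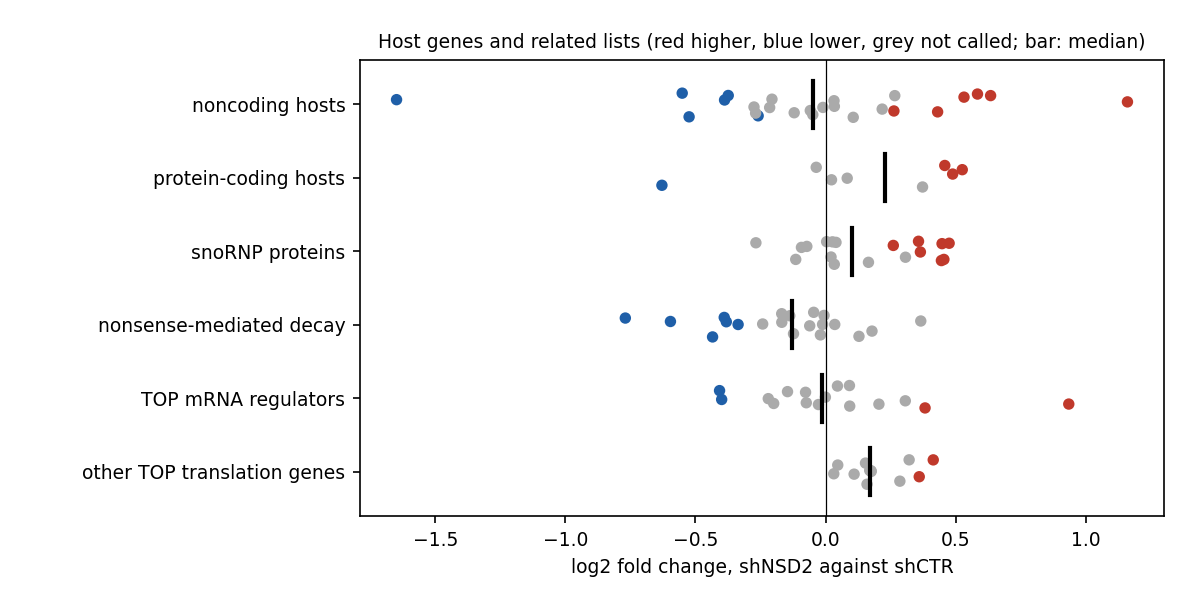
Log2 fold change, shNSD2 against shCTR, of each tested gene of the noncoding and protein-coding hosts and of 4 related lists, with a black bar at each list's median; red higher, blue lower, grey not called, and the vertical scatter within a row has no meaning. The medians are -0.05, 0.23, 0.10, -0.13, -0.01 and 0.17 from top to bottom.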

How the data were processed

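The deposited table holds raw read counts per gene for 6 libraries, with no normalization, judged from whole numbers with different totals. CASAVA 1.8.2, STAR 2.6.0a and GRCh38 are named in the submitters' processing notes. No source used here gives the counting program, its annotation release or its strand setting. Sample titles gave the groups and replicate numbers.

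The comparison used edgeR 4.0.16 under R 4.3.3 (filterByExpr, TMM, glmQLFit and glmQLFTest) with group as its single term. Of all genes 17160 passed filterByExpr and 14253 did not. Benjamini-Hochberg adjustment ran over every tested gene, with calls at an adjusted p under 0.05. Each SE is the size of the log2 fold change divided by the root of F. Positions, gene types, merged exon lengths and GC content of the longest transcript came from GENCODE 29 (31313 identifiers matched), and promoter sequences from RefSeq. Values per library are given for NSD2, for called hosts averaging 5 CPM or more and for the 6 most abundant hosts, and 2 called genes per direction are named from each related list. The hosts and lists were chosen with earlier results of these data known. The 15 alternatives were 3 other scalings, DESeq2 1.42.0, limma-voom (limma 3.58.1), 2 other filters, a replicate block, removal of loess trends on GC content and exon length, and each library left out. On simulated data for this comparison (17160 genes) the test recovered 57% of 100 genes changed 1.5-fold and 82% of 100 changed 2-fold, with 8 false among 147 calls. Only these genes were changed, and no simulated library was set apart as shCTR 4 was. In the data 30.7% of genes were called, so these rates need not carry over to them.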

Additional observations from a re-analysis of the deposited data

How the results depend on the processing

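Most changes came from removing trends on GC content and exon length and from leaving out libraries; the cause was not tested. With those trends removed, 2 noncoding hosts, 4 genes of snoRNA-protein assembly and 4 other TOP messages were higher and 1 TOP regulator was lower, and the log2 fold changes of DANCR (-0.033), SNHG10 (-0.078) and SNHG14 (0.032) changed sign. Without the low-count filter, 4 assembly genes and 1 other TOP message were higher. When genes had to reach 1 CPM in 3 libraries, 1 other TOP message was higher and 1 assembly gene lower, and the DESeq2 Wald test also called 1 assembly gene lower. With DESeq2 size factors 1 other TOP message was higher, and ZFAS1 was at 0.0121 with upper-quartile scaling. The numbers 1 and 2 are shared by both groups, and their deviations from the group means correlated at 0.05 and -0.18. Libraries of unlike number reached 0.48 (shCTR 2 with shNSD2 1), so these values cannot tell whether the numbers pair the libraries. A replicate block leaves shCTR 4 and shNSD2 3 without a partner of the same number, so it compares libraries 1 and 2 alone. In that fit 20 hosts were called, the 16 reported ones among them, with 3242 genes higher and 3001 lower in all. There 1 decay factor and 4 other TOP messages were higher, and NAP1L4 was at 0.0135.

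Leaving out 1 library at a time gave 1116 to 4251 genes higher and 1320 to 4011 lower. Noncoding hosts numbered 1 to 8 higher and 3 to 8 lower, coding hosts 0 to 4 higher, other hosts 5 to 63 higher and 21 to 79 lower, assembly genes 0 to 9 higher and 0 to 1 lower, decay factors 0 to 3 higher and 0 to 7 lower, TOP regulators 1 to 4 higher and 0 to 4 lower, and other TOP messages 0 to 5 higher. The upper ends are without shCTR 4. Log2 fold changes that changed sign ranged from -0.0229 to 0.26 for DANCR, from -0.0888 to 0.0278 for NAP1L4, from -0.0459 to 0.10 for CWF19L1, from -0.0008 to 0.0646 for SNHG10, from -0.18 to 0.0249 for SNHG11, from -0.13 to 0.0150 for SNHG20 and from -0.0551 to 0.0702 for ZFAS1. Of 495 host values over the alternatives, 402 kept direction and side of the threshold, 64 lost the call, 14 gained one and 15 changed sign. NSD2 stayed between -1.34 and -1.27 in the fits with 1 library left out. It was at -1.03 with the trends on GC content and exon length removed and at -1.36 with the replicate block.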

Other observations

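NSD2, the target of the shRNA, is itself a host by annotation: its span holds SCARNA22, a small Cajal body RNA. The SCARNA22 row had 8, 10 and 3 counts in shCTR 1, 2 and 4 and 4, 7 and 8 counts in shNSD2 1, 2 and 3, below the filter, so nothing is said here of its change.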
